A study of Homo sapiens with 112 samples.

Results

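To see how hormone-starved prostate cancer cells change between 2 harvests when they receive neither androgen nor drug, the vehicle-treated VCaP libraries taken at 22 h were compared with those taken at 8 h. They were chosen by their sample labels and count columns, 8 libraries at 22 h and 10 at 8 h, which makes 18 of the 55 VCaP libraries of a series that also holds 57 LAPC4 libraries. VCaP is a human prostate cancer cell line that depends on androgen and carries the TMPRSS2-ERG fusion. The cells of all 18 libraries had spent 2 days without hormone, in 10% serum stripped with charcoal, and then received DMSO, the solvent, in place of both the synthetic androgen R1881 and the antiandrogen darolutamide. The methods of the study give 5 biological replicates per condition and the labels do not say which libraries come from separate cultures. P-values therefore measure the spread between libraries, which may be technical. In the tests of VCaP genes this spread, and with it the SE, was estimated over all 55 VCaP libraries. Time after the addition of DMSO, total time in stripped serum, the age of the medium and the hour of harvest cannot be told apart in this design. In bulk RNA, a change in the share of cells in a given state cannot be told apart from a change of RNA per cell.

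Growing cells copy their DNA in S phase and divide in mitosis, and the genes for these phases are switched on in separate waves. Genes for DNA replication are driven by E2F factors and come first. Genes for G2 and mitosis follow, under a complex of the MuvB core with B-MYB and FOXM1. This complex is known to act at a short promoter sequence, the cell-cycle genes homology region (CHR). The promoters of these genes are also known for CCAAT boxes. In prostate cancer cells that rely on it, androgen is known to regulate entry into the cell cycle as well as secretory and lipid genes.

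The 22 h libraries held 12951648 to 21845652 counted reads and the 8 h libraries 12870607 to 21882387, and the difference of their means did not pass the test (two-sided exact permutation test over 43758 assignments, p = 0.634). All 12 luminal prostate markers were detected (5 called higher at 22 h and none lower), with a summed level of 7770 to 8092 CPM (read counts scaled to library size with TMM factors) at 8 h and 7961 to 8566 CPM at 22 h. Of the basal markers, KRT5 and DSG3 were at 0 in all 18 libraries, as were the endothelial marker CDH5 and the leukocyte markers CD3E, CD68 and CSF1R and the red cell gene HBB. The 9 fibroblast markers summed to between 26.6 and 33.9 CPM in both groups, with COL1A2 and THY1 at 0. Mitochondrially encoded genes took 1.21% ± 0.06 (SD, n = 8) of reads at 22 h and 1.31% ± 0.11 (SD, n = 10) at 8 h (two-sided exact permutation test, p = 0.0266), a difference that did not pass within replicates 1 to 5 (p = 0.135) or 6 and above (p = 0.179).

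By quasi-likelihood in edgeR, with p adjusted by Benjamini-Hochberg and called under 0.05, 5739 of 19266 genes differed between 22 h and 8 h (29.8%). Of these, 3059 were higher at 22 h (15.9%) and 2680 lower (13.9%). Most differences were small. The median absolute log2 fold change of the called genes was 0.25, and 799 called genes differed by more than 1.5-fold. Only 220 genes (1.14%) also passed an absolute log2 fold change of 1, with 120 higher (0.623%) and 100 lower (0.519%). Of the 120 rises, 65 lay above the median expression, while only 1 of the 100 falls did. Without any scaling beyond library size, 5990 genes were called and 39.3% of them were higher, against 53.3% here. In 1000 genes every 22 h library was above every 8 h library (5.19%), and in 476 genes every one was below (2.47%).

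**Figure D1:**
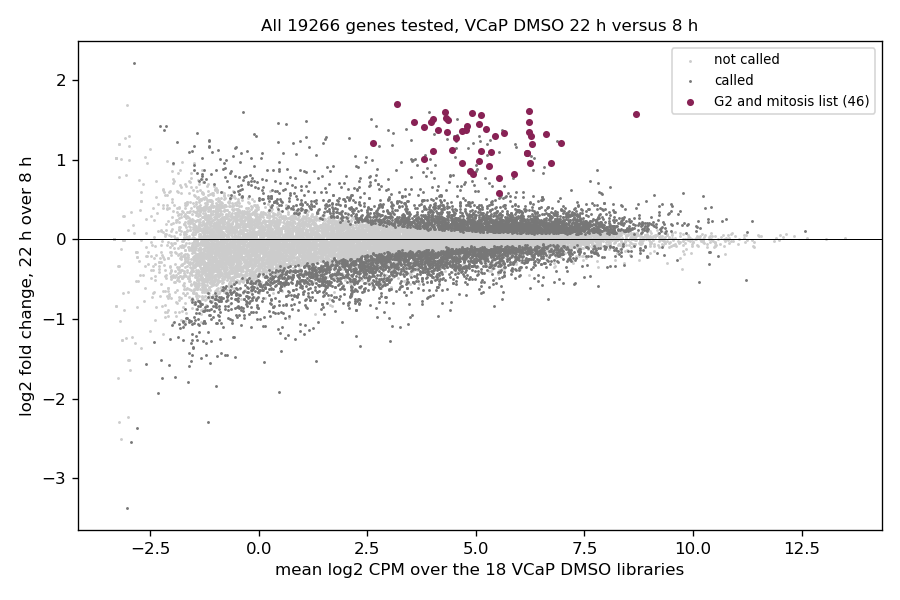
Log2 fold change (22 h over 8 h, y axis) against the mean log2 CPM over the 18 VCaP DMSO libraries (x axis) for the 19266 genes tested, with called genes in dark grey and the 46 G2 and mitosis genes in purple. All 46 lie above 0, between 0.59 and 1.70.

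Genes of G2 and mitosis gave the clearest pattern. All 46 listed members were called higher at 22 h, against 15.9% of all genes tested, and in all 46 the 22 h libraries lay above every 8 h library, against 5.19% of all genes. Their median log2 fold change was 1.31, a 2.49-fold rise, beside -0.01 over all genes tested. The smallest rise was that of MAD2L1, a spindle checkpoint protein, at 1.5-fold, and the largest that of CENPA, the histone H3 variant of centromeres, at 3.24-fold. In 36 members the rise was at least 2-fold. The mean log2 CPM over the list ran from 4.47 to 4.65 in the 8 h libraries and from 5.79 to 5.88 in the 22 h libraries, so that no library came near the other group.

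The most strongly called member was KIF20A, a kinesin of the central spindle needed for cytokinesis (chr5:138178719-138187723, plus strand, GRCh38). Its level was 40.2, 45.2 and 49.3 CPM (lowest, median and highest) at 8 h and 133, 136 and 145 CPM at 22 h. The groups did not overlap, and the log2 fold change was 1.61 ± 0.04 (SE, n = 8 and 10, edgeR adjusted p = 4.13e-39). TOP2A, the DNA topoisomerase that untangles sister chromatids (chr17:40388525-40417896, minus strand), ran from 229 to 278 CPM at 8 h, with a median of 254, and from 681 to 844 CPM at 22 h, with a median of 739. It rose by a log2 fold change of 1.58 ± 0.04 (SE, edgeR adjusted p = 4.88e-36). MKI67, which encodes the proliferation antigen Ki-67 that coats mitotic chromosomes (chr10:128096659-128126423, minus strand), had 74.8, 88.2 and 93.7 CPM at 8 h and 179, 197 and 217 CPM at 22 h. Its log2 fold change was 1.21 ± 0.04 (SE, edgeR adjusted p = 7.84e-32), again without overlap between the groups.

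The rise reached every functional group within the list. Among the drivers of mitotic entry, cyclin B1 (CCNB1) had 45.98, 51.1 and 56.9 CPM at 8 h and 123, 126 and 131 CPM at 22 h, a log2 fold change of 1.30 ± 0.03 (SE, edgeR adjusted p = 9.8e-38). Its kinase partner CDK1 had a log2 fold change of 1.08, cyclin A2 (CCNA2) one of 1.45 and cyclin B2 (CCNB2) one of 0.96. The phosphatase that activates CDK1, CDC25C, rose from a median of 12 to 35.5 CPM, with a log2 fold change of 1.60 ± 0.05 (SE, edgeR adjusted p = 2.85e-34), and its relative CDC25B by 0.83. All of these members were called, with values from 0.83 to 1.60.

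Mitotic kinases and their activators moved with them. The log2 fold changes were 1.30 for AURKA, a centrosome and spindle kinase, 1.33 for its activator TPX2, 1.21 for AURKB, the kinase of the chromosomal passenger complex, 1.12 for its partner BIRC5 (survivin) and 1.38 for PLK1, the polo-like kinase. The checkpoint kinases BUB1 and TTK stood at 1.39 and 0.77. FOXM1, the transcription factor of this gene wave, rose by a log2 fold change of 0.96, from a median of 56.6 to 111 CPM.

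Kinetochore and spindle genes included several of the largest rises. CENPE, a kinetochore kinesin, had 16.8, 18.5 and 19.98 CPM at 8 h and 42.6, 55.8 and 60.1 CPM at 22 h, with a log2 fold change of 1.58 ± 0.06 (SE, edgeR adjusted p = 1.11e-28). Outer kinetochore subunits NDC80 and NUF2 followed at 1.36 and 1.11, and the large kinetochore protein CENPF at 1.47. HMMR, which helps to organize the spindle, rose from a median of 12.6 to 35.6 CPM (log2 fold change 1.5 ± 0.06, SE, edgeR adjusted p = 4.18e-29). PRC1, which bundles the microtubules of the spindle midzone, had 47.1, 55.8 and 56.3 CPM at 8 h and 118, 124 and 133 CPM at 22 h, a log2 fold change of 1.20 ± 0.03 (SE, edgeR adjusted p = 3.51e-37). CDC20 and UBE2C, the activator and the ubiquitin-conjugating enzyme of the anaphase-promoting complex, stood at 1.38 and 1.36. Neither group of libraries reached into the other for any of these genes.

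The 10 largest rises among abundant protein-coding genes with ranges apart were, in order, KIF20A, IQGAP3, CDC25C, CENPE, TOP2A, DLGAP5, KIF14, GPSM2, CDCA3 and HMMR, with log2 fold changes from 1.61 down to 1.5. All but IQGAP3 and GPSM2 belong to the list above. GPSM2, which ties the spindle to the cell cortex, rose from a median of 14.7 to 41.2 CPM, and IQGAP3, a cytoskeletal scaffold, from 9.06 to 28.5 CPM. Of the 65 rises above log2 1 and above the median expression, 34 were on the list and 31 were not. Named after their values were seen, those 31 included CEP55, KIF4A, CKAP2L, KIFC1, ESPL1, RACGAP1, HJURP, NCAPG, SPAG5 and CCNF, also genes of mitosis and cytokinesis, with log2 fold changes from 1.01 (CCNF) to 1.38 (CEP55). They also held ABCG1, the sterol transporter described further on.

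Promoter sequences are shown for 5 of these genes, because CHR and CCAAT letters are the features by which this group of genes is known. They are the 200 bases before the single start that RefSeq lists for KIF20A (chr5:138178912-138179111, plus strand), CCNB1 (chr5:69166950-69167149, plus strand), PRC1 (chr15:90994536-90994735, minus strand), TOP2A (chr17:40417897-40418096, minus strand) and HMMR (chr5:163460432-163460631, plus strand), in build GRCh38.p14, written 5′ to 3′ with CCAAT boxes (CCAAT or its reverse complement ATTGG) and CHR letters (TTTGAA or its reverse complement TTCAAA) in capitals.
KIF20A: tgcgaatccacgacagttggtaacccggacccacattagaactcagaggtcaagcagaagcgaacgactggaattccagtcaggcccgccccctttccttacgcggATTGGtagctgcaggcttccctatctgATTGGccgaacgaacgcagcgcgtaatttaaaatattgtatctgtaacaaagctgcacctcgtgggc
CCNB1: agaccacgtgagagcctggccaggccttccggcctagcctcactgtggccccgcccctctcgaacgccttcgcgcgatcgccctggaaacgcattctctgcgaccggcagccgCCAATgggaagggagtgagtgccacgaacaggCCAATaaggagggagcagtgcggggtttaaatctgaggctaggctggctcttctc
PRC1: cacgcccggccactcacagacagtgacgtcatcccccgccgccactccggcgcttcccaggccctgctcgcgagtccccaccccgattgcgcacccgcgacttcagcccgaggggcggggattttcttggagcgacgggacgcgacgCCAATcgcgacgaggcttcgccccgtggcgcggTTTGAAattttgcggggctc
TOP2A: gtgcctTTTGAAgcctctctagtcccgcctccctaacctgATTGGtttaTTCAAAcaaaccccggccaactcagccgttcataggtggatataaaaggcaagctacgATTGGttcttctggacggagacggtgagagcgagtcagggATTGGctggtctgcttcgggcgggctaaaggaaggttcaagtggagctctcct
HMMR: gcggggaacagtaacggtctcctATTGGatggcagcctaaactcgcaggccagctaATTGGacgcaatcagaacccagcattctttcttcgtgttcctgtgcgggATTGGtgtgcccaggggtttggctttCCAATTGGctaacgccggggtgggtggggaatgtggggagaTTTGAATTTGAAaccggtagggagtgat
KIF20A and CCNB1 each held a pair of CCAAT boxes and no TTTGAA. Only these exact letters were sought, so a CHR with other letters would be missed. PRC1 held 1 of each, with TTTGAA 20 bases before the start. In HMMR 2 copies of TTTGAA adjoin, and the CCAAT box at 69 bases before the start shares letters with a reverse box at 66. The choice to look for both motifs in this list was made after its fold changes were known.

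Over the 250 bases before and 50 after all listed starts, 39 of the 46 G2 and mitosis genes matched a RefSeq promoter. TTTGAA was present on either strand in 29 of them (74.4%), against 18.2% of all 27303 gene symbols with a promoter and 1 of 40 DNA replication genes (2.5%). CCAAT was present in 33 of the 39 (84.6%), against 39.7% of all and 24 of 40 DNA replication genes (60.0%). It was not particular to this list, with 16 of 18 cholesterol gene promoters (88.9%) and 12 of 18 clock gene promoters (66.7%). A match of letters is a description and not a bound site.

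DNA replication genes gave another picture. Of 47 members, 6 were called higher (12.8%, against 15.9% of all genes) and 9 lower (19.1%, against 13.9%), with a median log2 fold change of -0.02, and 36 lay within 0.25 of 0. The mean log2 CPM over the list was 4.55 to 4.63 at 8 h and 4.52 to 4.63 at 22 h, and the groups overlapped. Scaled by library size alone, 14 members were called lower. Of the 6 subunits of the replicative helicase, 5 were called lower. MCM6 had a log2 fold change of -0.34 (edgeR adjusted p = 1.23e-09), MCM5 of -0.47, MCM3 of -0.22, MCM4 of -0.17 and MCM2 of -0.18, while MCM7 at -0.02 was not called. PCNA, the sliding clamp of DNA polymerase, stood at -0.12, and the factors E2F1 and CCNE1, which act at the start of S phase, at -0.39 and -0.72, with all 3 called lower.

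Among the members called higher was RRM2, which encodes the regulated subunit of ribonucleotide reductase. It had 35.8, 41.1 and 45.5 CPM at 8 h and 60.0, 66.3 and 68.8 CPM at 22 h, with a log2 fold change of 0.68 ± 0.04 (SE, edgeR adjusted p = 3.62e-19). Its partner RRM1 stood at 0.30, thymidylate synthase (TYMS) at 0.37 and the primase subunit PRIM1 at 0.29. E2F8, a repressor of E2F targets, rose by 0.75, from a median of 5.94 to 10.5 CPM. Of the 46 mitotic genes, 45 rose by more than this largest value of the replication list.

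**Figure D2:**
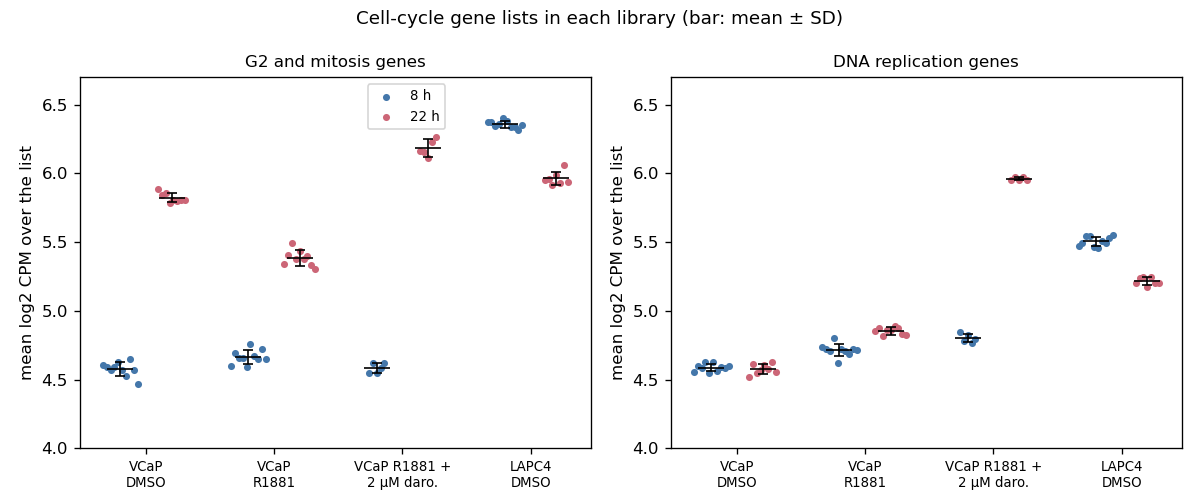
Mean log2 CPM over the 46 G2 and mitosis genes (left) and the 47 DNA replication genes (right) in each library, by treatment, with 8 h in blue and 22 h in red (points are libraries, bars are mean ± SD). Vehicle VCaP libraries separate by time for mitosis (4.47 to 4.65 against 5.79 to 5.88) and not for replication, while LAPC4 vehicle libraries are lower at 22 h for both.

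The same interval was set beside the other treatments, each with its own 8 h libraries. With 1 nM R1881, all 46 mitotic genes were again higher at 22 h (33.3% of all genes were called higher there), with a median log2 fold change of 0.70. The difference of the rises, R1881 minus vehicle, was called lower in 42 members and higher in 2, against 32.3% of all genes called lower in this interaction. MKI67, for example, rose by 0.57 with R1881, and the interaction was -0.64 ± 0.06 (SE, edgeR adjusted p = 1.46e-14). With R1881 plus 2 µM darolutamide, all 46 were higher (25.0% of all genes were), with a median of 1.62. Of the 47 replication genes, 46 were also called higher with darolutamide, with a median of 1.20, and with R1881 29 were higher and 9 lower (37.6% of all genes were lower there). At 8 h the mean log2 CPM over the mitotic list was 4.47 to 4.65 for vehicle, 4.59 to 4.76 for R1881 and 4.54 to 4.62 for R1881 plus 2 µM darolutamide.

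LAPC4, another androgen-dependent human prostate cancer line, moved the opposite way. In its vehicle libraries, 7 at 22 h and 10 at 8 h, all 46 mitotic genes were called lower at 22 h, against 11.4% of all 18204 genes tested. The log2 fold changes lay between -0.64 (KIF18B) and -0.14 (PTTG1), with a median of -0.41, and the library means over the list fell from 6.32 to 6.40 at 8 h to 5.92 to 6.06 at 22 h. Replication genes fell too, 41 of 47, with a median of -0.28. The interaction of cell line and time, fitted over the libraries of both lines together, was called in all 46 mitotic genes with the VCaP change the higher, against 10.8% of 16578 genes. For MKI67 it was 1.76 ± 0.08 (SE, edgeR adjusted p = 2.49e-37). Over all genes, 3697 interactions were called (22.3%), and in 11.5% of genes VCaP had the lower change. Of the genes called higher in VCaP, 19.2% of those tested were also called higher in LAPC4 and 17.4% lower, and of the genes called lower 19.2% were also lower and 11.3% higher.

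**Figure D3:**
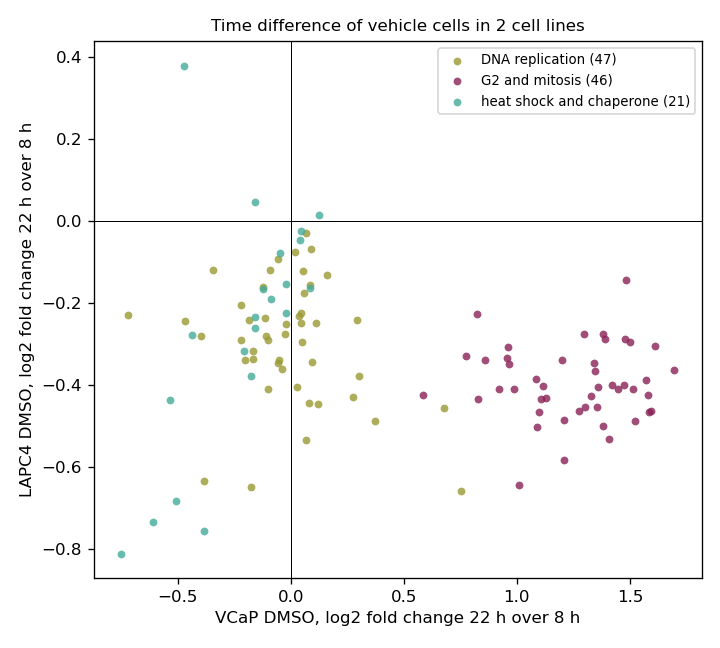
Log2 fold change of 22 h over 8 h in vehicle-treated VCaP (x axis) and LAPC4 (y axis) for genes of 3 lists, 1 point per gene. The G2 and mitosis genes (purple) all sit right of 0 and below 0, the DNA replication genes (olive) lie around 0 in VCaP and below 0 in LAPC4, and most heat shock genes (green) are negative in both.

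Inhibitors and regulators of the G1 phase were mixed. Of 19 CDK inhibitor and G1 cyclin genes, 7 were higher (36.8%, against 15.9% of all genes) and 1 lower (5.26%, against 13.9%). CDKN2C (p18), an inhibitor of CDK4 and CDK6, rose from 5.60, 7.25 and 8.15 CPM to 12.2, 13.9 and 15.4 CPM, with a log2 fold change of 0.97 ± 0.07 (SE, edgeR adjusted p = 6.84e-17) and no overlap. CDKN1B (p27), a general inhibitor of CDK2, was higher by 0.25 ± 0.03, with medians of 56.8 and 67.1 CPM. CCND1 (cyclin D1) was higher by 0.14, a call that was lost with only replicates 6 and above (adjusted p = 0.147), and CDKN1A (p21) at -0.06 was not called.

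Heat shock and chaperone genes fell. Of 22 members tested, 13 were called lower and none higher, against 13.9% of all genes called lower, and the median log2 fold change was -0.16. HSPA8, the constitutive HSC70 chaperone (chr11:123057489-123063230, minus strand), had 2570, 2787 and 2891 CPM at 8 h and 1822, 1956 and 2043 CPM at 22 h. The groups lay apart, and the log2 fold change was -0.51 ± 0.03 (SE, edgeR adjusted p = 1.75e-20). HSPH1, its nucleotide exchange factor, stood at -0.53 and the co-chaperone DNAJA1 at -0.21, both without overlap. Inducible HSPA1A and HSPA1B were called lower at -0.75 and -0.61, but they are near-identical copies whose reads the counting could have split. The chaperonin pair HSPD1 and HSPE1, at 0.09 and 0.05, was not called. In LAPC4, 16 of 23 members were lower (11.4% of all genes were there) and none higher, and HSPA8 stood at -0.68. The other VCaP treatments differed. With R1881, 11 of the 22 were lower (37.6% of all genes were) and 6 higher (33.3%), with a median of -0.12. With R1881 plus 2 µM darolutamide, 10 were higher (25.0% of all genes were) and 4 lower. The median there was 0.13, beside -0.02 over all genes.

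RBM3, a cold-inducible RNA-binding protein, was among the most precisely measured falls. It had 118, 126 and 136 CPM at 8 h and 71.6, 75.2 and 77.5 CPM at 22 h, a log2 fold change of -0.75 ± 0.03 (SE, edgeR adjusted p = 8.45e-29). It was lower at 22 h in LAPC4 as well, at -0.36, and with R1881, at -1.15.

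Sterol genes were moderately higher. Of 24 cholesterol synthesis and uptake genes, 16 were called higher (66.7%, against 15.9% of all genes) and none lower, with a median log2 fold change of 0.25. In 12 the ranges lay apart with 22 h higher, as they did in 5.19% of all genes. INSIG1, which retains the sterol sensor in the endoplasmic reticulum and is itself a target of SREBP2, had 40.7, 45.9 and 48.9 CPM at 8 h and 70.9, 77.4 and 86.6 CPM at 22 h. No library overlapped, and its log2 fold change was 0.77 ± 0.05 (SE, edgeR adjusted p = 1.7e-19), the largest of the list. Squalene synthase FDFT1 stood at 0.37 and HMGCS1, an early enzyme of the pathway, at 0.27. The same genes had larger differences over this interval with R1881, where all 24 were higher (33.3% of all genes were) with a median of 1.21, and the interaction was called higher with R1881 in 23 of them, against 28.1% of all genes. The rise was also large with R1881 plus 2 µM darolutamide, where 23 of the 24 were higher (25.0% of all genes were) and none lower. The median there was 1.17. In LAPC4 13 of 25 were higher (10.7% of all genes were) and none lower, with a median of 0.18.

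Some genes of sterol efflux rose with those of synthesis. ABCG1, a cholesterol exporter and a target of the sterol receptor LXR, had 26.1, 27.5 and 29.6 CPM at 8 h and 52.3, 56.9 and 63.5 CPM at 22 h, with a log2 fold change of 1.06 ± 0.04 (SE, edgeR adjusted p = 1.1e-28). ABCA1, which loads cholesterol onto apolipoproteins, had 14.1, 15.97 and 16.5 CPM at 8 h and 19.4, 21.7 and 24.9 CPM at 22 h, with a log2 fold change of 0.47 ± 0.06 (SE, edgeR adjusted p = 1.56e-09). Both pairs of groups lay apart. Of the 9 genes of this list 4 were called higher (44.4%, against 15.9% of all genes), 5 were not called and none was lower. The median log2 fold change was 0.11. In LAPC4 ABCG1 was lower, at -0.41, and ABCA1 at -0.02 was not called. The VCaP minus LAPC4 interaction of ABCA1 was 0.47 ± 0.08 (SE, edgeR adjusted p = 5.03e-07), and with only replicates 6 and above it was 0.34 and no longer called (adjusted p = 0.0888). Of 20 fatty acid synthesis genes, 4 were called higher and 2 lower, to be read beside 15.9% and 13.9% of all genes. Their median log2 fold change was -0.01, so the list as a whole did not rise. ACACA and SCD, which make malonyl-CoA and desaturate fatty acids, were higher by 0.45 and 0.40, while the lowest member, MLXIPL, stood at -0.53.

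Of 42 androgen-induced genes, 19 were called higher without androgen (45.2%, against 15.9% of all genes) and 6 lower (14.3%, against 13.9%), with a median log2 fold change of 0.09. In 12 the ranges lay apart with 22 h higher, as in 5.19% of all genes. KLK3, which encodes prostate-specific antigen, had 14.2, 16.9 and 18.8 CPM at 8 h and 14.9, 17.8 and 19.98 CPM at 22 h and was not called, at 0.07 ± 0.07 (SE, edgeR adjusted p = 0.476). With R1881 the same gene rose by 2.30 between the harvests. KLK2, another secreted protease of the same family, had 2349, 2445 and 2706 CPM at 8 h and 2588, 2952 and 3023 CPM at 22 h, with overlap, at 0.23 ± 0.03 (SE, edgeR adjusted p = 1.75e-09).

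TMPRSS2, whose promoter drives the fusion in these cells (chr21:41464300-41531116, minus strand), had 50.4, 54.9 and 57.9 CPM at 8 h and 66.1, 69.9 and 76.3 CPM at 22 h. It rose without overlap by 0.37 ± 0.03 (SE, edgeR adjusted p = 7.38e-15). ERG, the partner of the fusion, rose by 0.19 ± 0.03 (SE, edgeR adjusted p = 1.73e-06), with 117 to 131 CPM at 8 h and 132 to 147 CPM at 22 h. FKBP5, an androgen-induced co-chaperone, was lower by contrast, at -0.14 ± 0.03 (SE, edgeR adjusted p = 0.00124), and at -0.11 it was not called with only replicates 6 and above (adjusted p = 0.132). Of 23 genes that androgen lowers, 6 were higher (26.1%, against 15.9% of all genes) and 5 lower (21.7%, against 13.9%). UGT2B17, which glucuronidates androgens, was not called at 0.16 ± 0.11 (SE, edgeR adjusted p = 0.276). OPRK1, a neuropeptide receptor of this list, rose by 0.41, from a median of 87.7 to 118 CPM.

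**Figure D4:**
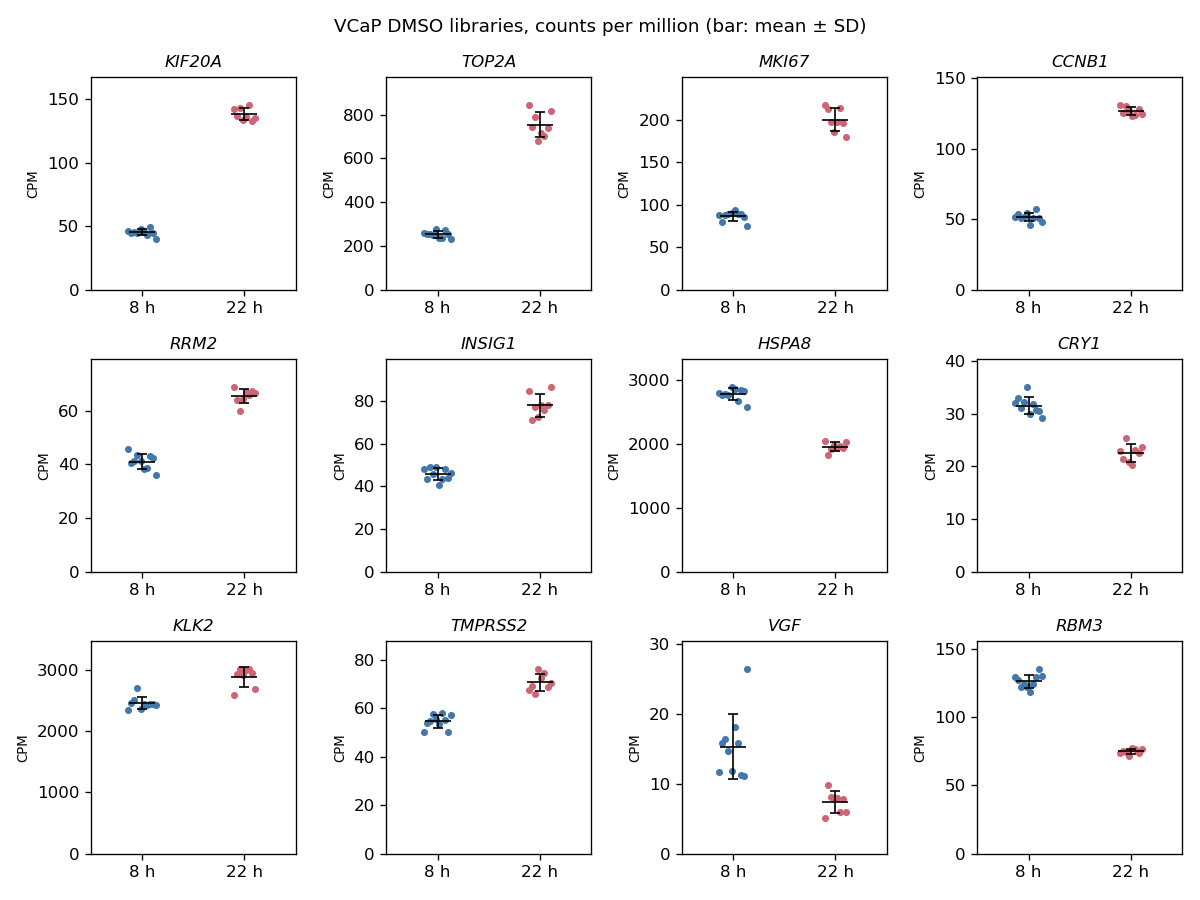
CPM of 12 genes in each VCaP DMSO library at 8 h (blue) and 22 h (red), with the mean ± SD as a bar and every axis from 0. The groups lie apart for all but KLK2, and the mitotic genes of the upper panels differ by 2.31-fold (MKI67) to 3.05-fold (KIF20A).

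Genes for protein folding in the endoplasmic reticulum were higher in 14 of 29 members (48.3%, against 15.9% of all genes). They were lower in 1, CRELD2 (3.45%, against 13.9%), with a median of 0.12. HSP90B1 (GRP94), the HSP90 of this compartment, had 933, 1011 and 1088 CPM at 8 h and 1386, 1445 and 1599 CPM at 22 h, a log2 fold change of 0.55 ± 0.04 (SE, edgeR adjusted p = 4.63e-18). HSPA5 (BiP) stood at 0.31 and the lectin chaperone CANX at 0.24, both with ranges apart. Of the HSP70 pair, cytosolic HSPA8 was lower and reticular HSPA5 higher.

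Of 39 ATF4 and amino acid response genes 16 were lower (41.0%, against 13.9% of all genes) and 6 higher (15.4%, against 15.9%). The median was -0.13. The aminoacyl-tRNA synthetases held the firmest falls. MARS, for methionine, had 100, 110 and 119 CPM at 8 h and 68.8, 73.1 and 79.3 CPM at 22 h, with a log2 fold change of -0.57 ± 0.03 (SE, edgeR adjusted p = 5.45e-23). GARS, for glycine, stood at -0.44 and AARS, for alanine, at -0.28, again with ranges apart. Asparagine synthetase (ASNS) was lower by -0.29 ± 0.04 (SE, edgeR adjusted p = 3.33e-07), with medians of 79.9 and 64.1 CPM. ATF4 and DDIT3, transcription factors of this response, went the other way, at 0.14 and 0.50, and the amino acid transporters SLC1A5 and SLC38A2 were higher at 0.42 and 0.33. Over the same interval with R1881, 16 of the 39 were higher (33.3% of all genes were) and 14 lower (37.6%), with a median of 0.05. With R1881 plus 2 µM darolutamide, 17 were higher (25.0% of all genes were) and 4 lower, with a median of 0.11.

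Clock genes showed small and mixed differences, with 7 of 21 higher (33.3%, against 15.9% of all genes) and 3 lower (14.3%, against 13.9%). CRY1, a repressor of the clock (chr12:106991364-107093549, minus strand), had the most firmly called of them, with 29.2, 31.5 and 35.1 CPM at 8 h and 20.4, 22.7 and 25.4 CPM at 22 h. It was lower without overlap by -0.48 ± 0.05 (SE, edgeR adjusted p = 4.25e-12), while in LAPC4 it was higher by 0.40, and the interaction was -0.91 ± 0.06 (SE, edgeR adjusted p = 2.73e-27). PER3 was lower at -0.25, and NR1D2, CRY2 and DBP were higher at 0.25, 0.25 and 0.51. PER1, PER2, NR1D1 and BMAL1 (listed as ARNTL) were not called, though with the GC slope of each library as a covariate PER1, PER2 and NR1D1 were higher at 0.26, 0.13 and 0.42 and 12 of the 21 were called higher. E-box letters (CACGTG) were present in 6 of 18 clock promoters (33.3%, against 8.78% of all) and ROR letters (AGGTCA) in 5 (27.8%, against 16.5%). The D-box letters TTACGTAA were in 1 (5.56%, against 0.15% of all) and TTATGTAA in 2 (11.1%, against 1.13%). For the sterol genes, TCACNCCAC was present in 1 of 18 promoters (5.56%, against 1.39% of all) and CCAAT in 16 (88.9%, against 39.7%).

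The largest falls among abundant protein-coding genes with ranges apart were VGF, PAPSS2, CHD5, ID1, EML6, GUCY1A2, MACROD1, RHBDD2, WWC2 and RBM3, from -1.07 to -0.75. VGF, a neuropeptide precursor, had 11.1, 15.2 and 26.4 CPM at 8 h and 5.10, 7.87 and 9.87 CPM at 22 h, with a log2 fold change of -1.07 ± 0.19 (SE, edgeR adjusted p = 1.22e-05). PAPSS2, which makes the sulfate donor used to inactivate steroids, had 13.5, 14.9 and 16.2 CPM at 8 h and 6.61, 7.76 and 8.37 CPM at 22 h, with a log2 fold change of -0.98 ± 0.07 (SE, edgeR adjusted p = 6.8e-17). The spread between 8 h libraries was wide for VGF and narrow for PAPSS2. ID1, a target of BMP signals, fell from a median of 27.8 to 14.8 CPM, and EML6, a microtubule-associated protein, from 55.1 to 31.8 CPM. In LAPC4 PAPSS2 was higher, at 0.26, and EML6 at 0.01 was not called.

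Among genes of external signals, EGR1, an immediate early transcription factor, rose from 2.95, 3.84 and 5.29 CPM to 6.64, 8.01 and 8.69 CPM, with a log2 fold change of 0.98 ± 0.10 (SE, edgeR adjusted p = 2.54e-12) and no overlap. FOS, at a median of 0.198 CPM, was not called (edgeR adjusted p = 0.823). MYC, the growth transcription factor, had 225, 265 and 323 CPM at 8 h and 291, 330 and 340 CPM at 22 h, with overlap and a log2 fold change of 0.29 ± 0.06 (SE, edgeR adjusted p = 8.68e-05), which was 0.18 and not called with only replicates 6 and above (adjusted p = 0.160). TXNIP, a glucose-induced inhibitor of thioredoxin, was lower at -0.13 (edgeR adjusted p = 0.0334), a call lost in 7 of the 18 fits that left out 1 library, with DESeq2 and with no filter on low counts. With only replicates 6 and above TXNIP stood at -0.00022 (adjusted p = 0.999). Of 24 immediate early genes 7 were higher (29.2%, against 15.9% of all genes) and 2 lower (8.33%, against 13.9%). Among 13 ERK feedback genes 2 were higher (15.4%) and 1 lower (7.69%), SPRY4, at -0.77. FOXO and insulin receptor pathway genes were higher in 13 of 27 (48.1%, against 15.9% of all genes) and lower in 1 (3.70%, against 13.9%). With only replicates 1 to 5 the number higher was 8. The insulin receptor INSR rose by 0.48, from a median of 24.6 to 34.0 CPM, and IGF1R, the receptor for insulin-like growth factor, by 0.27.

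Interferon-stimulated genes were lower in 10 of 31 (32.3%, against 13.9% of all genes) and higher in 1, STAT2 (3.23%, against 15.9%). Their median was -0.17, and with only replicates 1 to 5 the number lower was 5. HERC6, a ubiquitin ligase of this group, fell without overlap from a median of 46.7 to 36.8 CPM (log2 fold change -0.36 ± 0.04, SE, edgeR adjusted p = 3.06e-11). Neuroendocrine and neuronal genes were higher in 7 of 19 (36.8%, against 15.9% of all genes) and lower in 3 (15.8%, against 13.9%). Among them NCAM1, a neural adhesion molecule, stood at 0.75 and VGF at -1.07. SOX9 and EHF, transcription factors of prostate epithelium, rose by 0.48 and 0.39 among 17 lineage factors. That list held 5 members called higher (29.4%, against 15.9% of all genes) and 2 lower (11.8%, against 13.9%). HSD17B11, a steroid dehydrogenase, rose by 0.68 ± 0.06 (SE, edgeR adjusted p = 1.02e-13), from 20.8 to 29.6 CPM at 8 h to 33.2 to 46.3 CPM at 22 h. It was among the 4 rises of 14 steroid enzymes (28.6%, against 15.9% of all genes), of which 2 were lower (14.3%, against 13.9%).

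In the remaining lists, to be read beside 15.9% higher and 13.9% lower over all genes, counts higher and lower were 11 and 7 of 36 glycolysis and hypoxia genes, 1 and 2 of 6 glucose-sensing genes, 5 and 6 of 37 ribosome biogenesis genes and 12 and 8 of 43 lysosome and autophagy genes. They were 5 and 4 of 18 antigen presentation genes, 1 and 1 of 16 NF-kB targets, 4 and 7 of 25 TGF-beta and BMP genes and 4 and 6 of 30 WNT genes. They were 3 and 3 of 18 glucocorticoid response genes, 2 and 6 of 24 NRF2 genes, 1 and 1 of 7 aryl hydrocarbon receptor targets and 6 and 6 of 26 p53 pathway genes. Of the 13 mitochondrially encoded genes none was higher and 4 were lower, a number that fell to 1 without 8 h replicate 6, beside the lower mitochondrial share at 22 h given above.

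**Figure D5:**
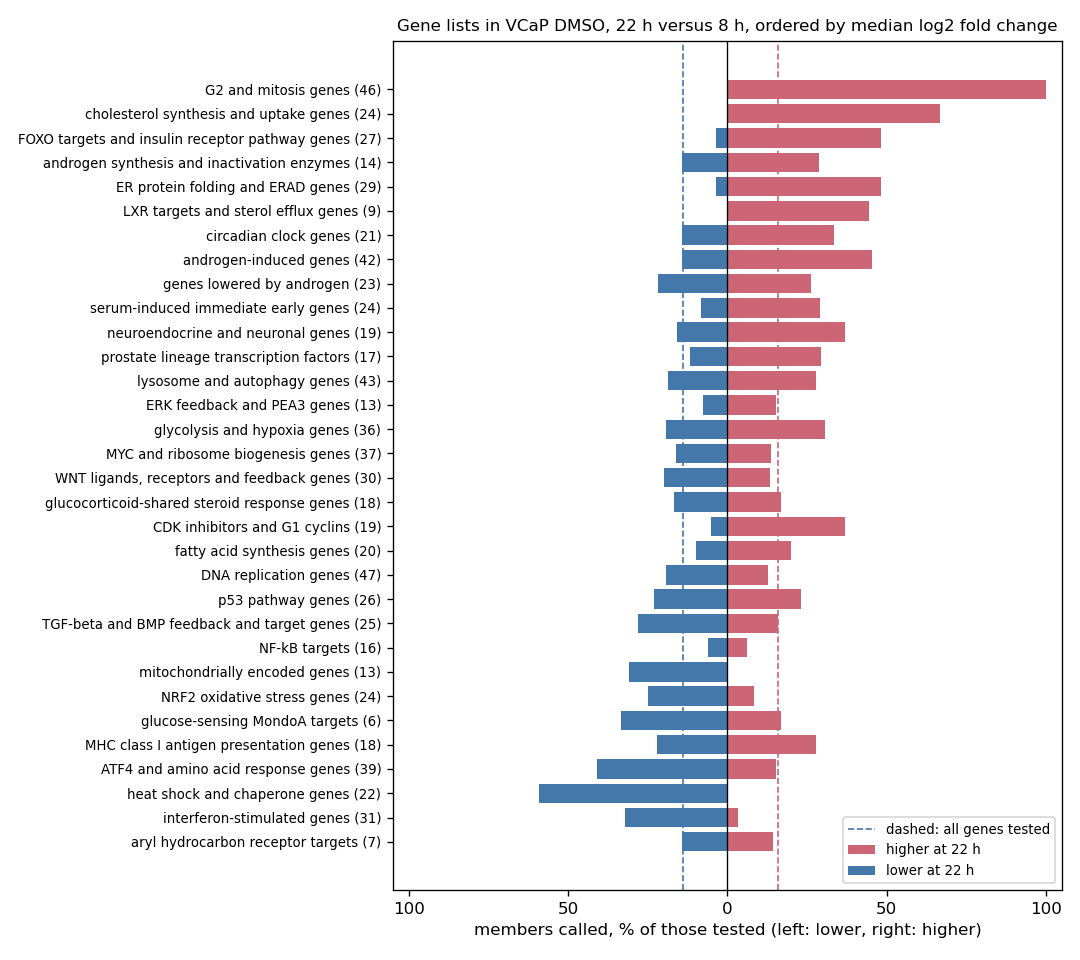
Share of the members tested that were called higher (red, right) or lower (blue, left) at 22 h in vehicle-treated VCaP, for 32 gene lists ordered by median log2 fold change, with the number tested in parentheses. Dashed lines give the shares over all genes tested, 15.9% higher and 13.9% lower, and the G2 and mitosis list reaches 100% higher.

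Calls were not spread evenly over kinds of gene. In the highest 25% of genes by expression 32.7% of genes were higher and 11.1% lower, and in the next to lowest 25% of genes 9.01% were higher and 18.8% lower. Of 606 long non-coding RNAs 6.44% were higher and 18.2% lower, against 19.8% and 16.6% of 13346 protein-coding genes. By the GC content of transcripts, 24.1% of the 25% of genes with lowest GC were higher and 5.73% of the 25% with highest GC, with 13.4% and 15.6% lower. The slope of log2 CPM on GC content, a technical measure of each library, had a difference of -0.00704 log2 CPM per percent between the groups, 22 h minus 8 h, which did not pass the test (two-sided exact permutation test, p = 0.280). With this slope as a covariate, 7208 genes were called, 52.1% of them higher, and the median log2 fold change of the mitotic list was 1.28. The median GC content of the mitotic list was 43.4%, that of the replication list 47.5% and that of all genes 47.7%.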

How the data were processed

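The authors sequenced RNA in 55 VCaP and 57 LAPC4 libraries, and the 18 VCaP libraries treated with DMSO at both positions were compared by harvest time. The deposited values are raw counts, whole numbers of reads per gene, which the authors made by mapping to GRCh38 with STAR and counting with featureCounts, with no normalization and no pooling of replicates. The annotation, the strand setting and the tool versions are not given in the sources used here, so the reads of genes that overlap, lie antisense or are near copies may be misassigned. No per-sample column was left unused, and library totals of 12870607 to 21882387 reads set the precision.

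The counts were tested with edgeR 4.0.16 (R 4.3.3) by quasi-likelihood, with TMM factors, over the 8 groups of the 55 VCaP libraries, which then share an estimate of spread. A gene was tested when 4 or more libraries of the cell line held 10 or more of its reads. LAPC4 libraries were fitted apart, and interactions of cell line and time over both lines. P-values were adjusted by Benjamini-Hochberg over all genes tested, and called means adjusted p under 0.05. SE was taken as the size of the log2 fold change over the root of F. CPM and log2 CPM use TMM factors, the latter with a prior count of 2, except that summed marker levels use the library total alone. The scripts were tested on simulated data, where 40.8% of genes changed by 1.25-fold were recovered and 83.3% of those changed by 1.5-fold. The simulation gave all genes the same spread, so these shares need not hold for the real libraries. Gene positions, GC content and biotypes came from GENCODE 44, matched by symbol for 33497 of 58684 genes and by an older symbol for 1625. Promoters came from RefSeq.

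Values are given for 24 genes picked by hand, for the 10 largest rises and 10 largest falls among abundant protein-coding genes called with ranges apart, and for up to 3 called members of each list with the smallest adjusted p. Other members are named with fold changes only, chosen after their values were seen. The members compared and the gene lists were chosen with earlier results of these data known. List counts cover the members that passed the filter on low counts. Single values of some genes are not reported here.

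Alternatives were DESeq2 1.42.0 with its size factors, upper quartile factors, library size alone, 2 other filters, a fit of the compared groups only, the replicate number as a block, a GC slope covariate, both together, replicates 1 to 5 or 6 and above, and each library left out in turn. Leaving out both shallow libraries was added after seeing the data.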

Additional observations from a re-analysis of the deposited data

Results flagged for a closer look

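Among 248 groups of values of the named genes and library measures, 17 held a library set apart from the rest of its group by Dixon's test, where chance alone gives about 1 in 20 (12.4). The 8 h library of replicate 7 held 12870607 reads and the 22 h library of replicate 4 held 12951648, both the lowest of their groups. In 8 h replicate 10 the level of ID1 was 46.5 CPM and of MACROD1 40.4 CPM, both the highest of the group, while SCD at 332 CPM, PRC1 at 47.1 CPM and TGIF1 at 11.8 CPM were the lowest. In 8 h replicate 6 HMGCS1 at 84.4 CPM and BNIP3 at 56.4 CPM were lowest and SPRED2 at 30.7 CPM was highest. Single values stood apart at 8 h for KLK2 (2706 CPM, replicate 4), ARNTL (4.03 CPM, replicate 8) and PLK2 (40.7 CPM, replicate 9). At 22 h they did for CDC25C (40.3 CPM, replicate 1), CENPE (42.6 CPM, replicate 4), CALR (1085 CPM, replicate 6) and SMAD9 (57.2 CPM, replicate 2).

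The change from 8 h to 22 h differed between VCaP and LAPC4 vehicle libraries, by the interaction test, in 11 of the 24 genes picked by hand. VCaP minus LAPC4, the log2 difference was 1.76 for MKI67, 0.71 for EGR1, 0.47 for ABCA1, 0.33 for both TMPRSS2 and PER2, 0.29 for CDKN1B and 0.21 for NR1D2. It was -0.91 for CRY1, -0.50 for ARNTL, -0.39 for TXNIP and -0.17 for HMGCS1. The values of NR1D2 and HMGCS1 lost their calls in 6 and 5 alternatives. With only replicates 6 and above EGR1 at 0.31 (edgeR adjusted p = 0.631), ABCA1 at 0.34 (p = 0.0888), PER2 at 0.30 (p = 0.0865) and ARNTL at -0.56 (p = 0.0731) lost theirs too. That setting holds fewer libraries of each vehicle group. In it the difference of EGR1 shrank from 0.71, while that of PER2 stayed near 0.33 and that of ARNTL was no smaller than -0.50 in size.

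Between R1881 and vehicle in VCaP, the same interval gave called differences in 19 of these genes. R1881 minus vehicle, androgen-induced KLK3, TMPRSS2, KLK2, ERG and FKBP5 stood at 2.24, 1.45, 0.57, 0.47 and 0.29, and UGT2B17 at -2.92. HMGCS1 stood at 1.06, TXNIP at 0.88 and ASNS at 0.14. Of the clock genes, PER2 and CRY1 were at 0.48 and 0.23, and NR1D2, PER1 and PER3 at -1.35, -0.49 and -0.45. CCND1 was at 0.78, EGR1 at -0.69, MKI67 at -0.64, CDKN1B at -0.49 and MYC at -0.34. With only replicates 6 and above PER1 at -0.16 (edgeR adjusted p = 0.614), CRY1 at 0.13 (p = 0.278), MYC at -0.24 (p = 0.116) and ASNS at 0.11 (p = 0.349) were not called, nor was ASNS with upper quartile factors, at 0.12 (p = 0.0676).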

How the results depend on the processing

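All 46 G2 and mitosis genes were called higher in each of the 30 alternatives, with a median log2 fold change between 1.26 and 1.32. Of the named genes called, 99 kept their call in every alternative, 15 lost it in at least 1 and none changed direction. DESeq2 called 5589 genes and shared 5491 calls, all in the same direction. With upper quartile factors 5807 genes were called, 44% of them higher, and with library size alone 5990, 39.3% of them higher, beside 5739 and 53.3%. The median of all genes moved from -0.01 to -0.04 and -0.05. Leaving out 1 library gave 5276 to 5858 called genes, 2560 to 3096 higher, 2431 to 3063 lower and 203 to 237 past log2 1. Without 8 h replicate 7, which had the fewest reads, 45.5% of calls were higher, and without both shallow libraries 46.2%.

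Without a filter on low counts 381 genes passed log2 1, against 220. With only replicates 1 to 5, 3520 genes were called, 1737 higher and 1783 lower, and 2458 VCaP minus LAPC4 interactions were called, and the mitochondrial share differed by -0.0593 percentage points (exact permutation test, p = 0.135). With only replicates 6 and above, 3456 were called, 1676 higher and 1780 lower, with 1390 in LAPC4, 1394 interactions and a mitochondrial difference of -0.150 (exact permutation test, p = 0.179, where the smallest p of 56 assignments is 0.0179). Fewer samples entered both fits. With the GC slope as a covariate 6692 genes were called in LAPC4, against 4020, and 5909 interactions, against 3697, and the cause was not tested.

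The replicate number as a block gave 5298 calls (2882 higher, 2416 lower), and with the GC slope 5948. Same-numbered libraries did not deviate together, with a mean correlation of 0.08 over 8 pairs, from -0.08 to 0.46, 2 of them over 0.1 and no library closest to its own number, so the numbers were not taken as pairing. CYP1B1 lost its call under the block and NR1D1 gained one.

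Single genes whose values changed sign were all ones that did not pass the test. ARNTL was -0.0014 with library size alone, -0.056 with replicates 6 and above, -0.0014 without both shallow libraries and between -0.00025 (without 22 h replicate 8) and 0.10 (without 8 h replicate 8) when 1 library was left out. FOS was 0.31 with replicates 1 to 5 and 0.18 with block and GC slope, and PER1 -0.11 with replicates 6 and above. The median changed sign under at least 1 alternative in 12 of the 32 lists, with medians at most 0.0824 from 0, among them the DNA replication list, which ran from -0.06 to 0.02. Among the 12 alternatives other than single libraries, 82 list counts moved by over 1.5 times and 686 did not, and with 1 library left out 59 did and 1093 did not. Sequencing depth limits the low-count genes, such as FOS at under 1 CPM.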
